A study of Mus musculus with 45 samples.

Results

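The 38 genes described here encode the enzymes that build an N-linked glycan, attach it to a protein and then trim and extend it. They were taken by symbol from a list of the pathway, and all 38 were found among the 28196 genes of both deposited expression tables. By role they comprised 10 genes of the oligosaccharyltransferase, 10 of lipid-linked oligosaccharide assembly, 3 of the dolichol phosphate mannose synthase, 4 of trimming and quality control in the endoplasmic reticulum (ER), 2 Golgi mannosidases, 5 of branching and capping in the Golgi and 4 of sugar nucleotide supply. Each of the 38 also passed the filter on low values.

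N-glycosylation begins on the lipid dolichol in the ER membrane, where sugars are added one at a time to form a branched precursor. The oligosaccharyltransferase moves the whole precursor onto asparagine residues of proteins entering the ER, glucosidases and mannosidases then trim it while the protein folds, and Golgi enzymes add N-acetylglucosamine, fucose, galactose and sialic acid. Plasma cells secrete antibodies in bulk, every antibody heavy chain carries N-glycans, and the core fucose, galactose and sialic acid of the IgG glycan are known to alter how Fc receptors and complement read the antibody.

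RNA of mouse splenic B2 cells was sequenced in 45 libraries, 15 groups of 3, before and during culture into antibody-secreting cells. All mice were C57BL/6 per the labels, and the mutant, dEx1A, lacks exon 1A of Prdm1, which encodes Blimp-1, a transcriptional repressor that plasma cells depend on. The dEx1A groups were day 4 and day 7 cells of LPS, TLR and BCR cultures, all from 9-week-old females. The wild type (WT) groups were LPS cultures at days 4 and 7, from 9-week-old females, and TLR and BCR cultures at days 4, 7 and 10 and uncultured B cells at day 0, from 7-week-old males. TLR cells were stimulated with LPS and BCR cells with antibody fragments against IgM and IgG, both with IL-4, IL-5 and irradiated fibroblast feeders bearing CD40L that were removed at day 2, and both received IL-6 and APRIL from day 4. These sexes and ages are those given for each sample; the protocols in the labels call the mice sex- and age-matched, and the conflict was not settled here. The sources used here do not describe the LPS culture beyond its label. The labels call day 4 and day 7 cells plasmablasts and day 10 cells plasma cells, and they do not say whether replicates came from separate animals, so p-values measure the spread between these samples, which may be technical.

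The libraries held an estimated 15.1 to 35.6 M reads assigned to genes. In 15 of them, which were the WT LPS groups and the day 7 dEx1A groups, the number was below 20 M, and these 15 also read GC-rich genes higher against GC-poor genes (a GC offset of 0.67 to 1.55 on the log2 scale) than the other 30 did (−1.79 to 0.56). Immunoglobulin genes took 1.94 to 2.01% of reads at day 0, 37.3 to 44.4% in WT TLR and 22.1 to 37.2% in WT BCR cultures at day 7, and 58.7 to 66.5% in WT TLR and 25 to 52.2% in WT BCR cultures at day 10. The 7 fibroblast markers summed to 92.9 to 210 CPM (reads scaled to library depth) in WT TLR and 148 to 309 CPM in WT BCR cultures at day 4, against 1.98 to 6.77 CPM at day 0. The 9 macrophage markers reached 8019 and 9207 CPM in replicates 1 and 2 of WT BCR at day 10, and 874 CPM in replicate 3. The part of these other cells in the results was not tested.

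Expression is given below as the deposited log2 value, in which 3.04 stands for no reads. Differences are on that log2 scale with their standard error (SE), every group holds 3 libraries, and a gene is said to rise or fall where limma's two-sided p, adjusted over all genes tested, was below 0.05. Counting strand is not given in the sources used here, so the values of genes whose exons overlap another gene are less certain; these are Dpm1, Gmppb, Alg1, Alg3, Alg9, Fut8, Krtcap2, Man1a, Man1b1, Mgat2, Pgm3, Rpn1, Rpn2 and St6gal1. In bulk RNA, fewer cells of a type and less RNA per cell cannot be told apart.

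In WT cells the pathway rose in steps over the first week of culture. Of the 38 genes, 23 rose and 0 fell by day 4 of the TLR culture, while 24.9% of all 19497 genes tested were higher and 23.5% lower. At day 7, 23 were higher than at day 4 and 2 lower, against 17.7% and 18.6% of all genes; the 2 were B4galt1 and Alg9, and Alg9 was lost without TLR day 4 replicate 1 or 2 or TLR day 7 replicate 1 or 3 (limma adjusted p = 0.15 to 0.18). The median difference of the 38 genes was 0.66 in the day 4 step and 0.86 in the day 7 step, and that of all genes was 0.01 and −0.06. In the BCR culture, 23 rose and 3 fell by day 4 (26.1% and 24.5% of all genes; 1 fell without BCR day 4 replicate 3), and 15 rose and 3 fell between days 4 and 7 (15.3% and 15.2%). That 15 became 8 when the medians of the libraries were made equal and 23 after a correction for GC content and length (21.5% of all genes higher).

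Few of the genes rose further by day 10. At day 10 against day 0, 27 genes were higher in TLR cultures and 24 in BCR cultures and 0 were lower in either, while 22.9% and 29.5% of all genes were higher and 23.1% and 22.8% lower. Both comparisons use the same 3 day 0 libraries. At day 10 against day 7, 1 gene rose and 6 fell in TLR cultures (3.51% and 4.69% of all genes) and 4 rose and 3 fell in BCR cultures (10.8% and 5.91%). With only the libraries of those 2 groups in the fit, the counts were 0 and 2 for TLR and 0 and 0 for BCR. The 4 that rose in BCR cultures became 2 without BCR day 7 replicate 1 or BCR day 10 replicate 1, and the 3 that fell became 5 without BCR day 10 replicate 3. The day of the highest mean was day 7 for 19 genes and day 10 for 12 in TLR cultures, and day 7 for 17 and day 10 for 13 in BCR cultures. The plot of day 10 against day 0 shows that the genes that passed lie in every role but the dolichol phosphate mannose synthase.

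**Figure D1:**
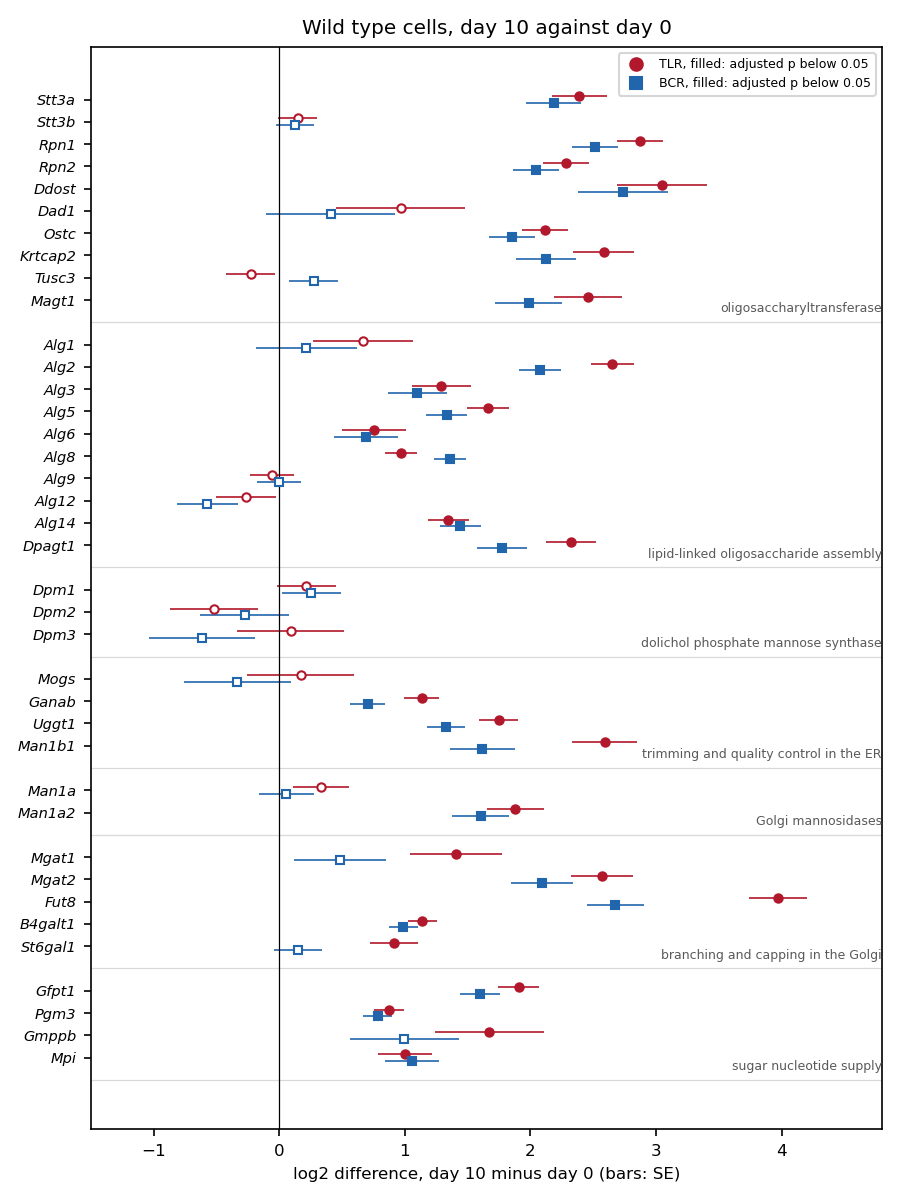
Log2 difference of each of the 38 genes at day 10 minus day 0 in WT TLR (red circles) and BCR (blue squares) cultures, with bars of 1 SE and filled symbols for an adjusted p below 0.05 (n = 3 libraries a group). Fut8 in TLR cultures is farthest to the right at 3.97, and Dpm1, Dpm2 and Dpm3 have open symbols in both cultures.

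The oligosaccharyltransferase was the role with the largest median rise at day 4 in TLR cultures (1.72 over its 10 genes). STT3A, the catalytic subunit of the complex that acts while the protein is still entering the ER, rose strongly. Stt3a read 13.08, 12.91 and 13.46 at day 4, against 11.16, 11.29 and 11.21 at day 0, and the groups did not overlap (difference 1.93, SE 0.22, limma adjusted p = 9.4e-07). At day 7 it read 14.37, 13.98 and 14.11, above every day 4 library (1.00, SE 0.22, limma adjusted p = 0.0015). Stt3b, the catalytic subunit of the complex that acts on sites skipped by the first, read 12.40, 12.29 and 12.65 at day 4 and 12.33, 12.27 and 12.21 at day 0, overlapping ranges, with a difference of 0.18 (SE 0.15, limma adjusted p = 0.36). At day 7 Stt3b read 13.19, 12.93 and 13.11 and was higher than at day 4 (0.63, SE 0.15, limma adjusted p = 0.0034).

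Stt3a rose relative to Stt3b in culture. Stt3a minus Stt3b within a library, on the log2 scale and without regard to transcript length, was 0.68, 0.62 and 0.81 at day 4 of the TLR culture, against −1.17, −0.98 and −1 at day 0. It was 0.72, 0.52 and 0.88 at day 4 of the BCR culture and 1.12, 1.24 and 1.22 at day 10 of the TLR culture. All 18 cultured WT TLR and BCR libraries lay above the day 0 libraries. Levels of 2 genes can be compared only per length, in reads per kilobase scaled to library depth (RPKM). That depth includes immunoglobulin reads, whose share differs between days, so RPKM serves here to compare genes within a day only. On that scale Stt3b was above Stt3a at day 0 (69.1 to 75 against 15.7 to 16.8 RPKM). At day 4 Stt3b was at 75.3 to 89.8 RPKM and Stt3a at 54.7 to 74.3 RPKM in TLR cultures, and Stt3b at 64.5 to 74.8 RPKM and Stt3a at 43.7 to 65 RPKM in BCR cultures. At day 7 their means were 68.4 and 68.3 RPKM in TLR and 70.4 and 55.4 RPKM in BCR cultures, and at day 10 29.3 and 31.9 RPKM in TLR and 44.6 and 41.8 RPKM in BCR cultures. On no day did the Stt3a libraries of a WT TLR or BCR culture lie above those of Stt3b without overlap per length. The length was that of all annotated exons of a gene merged, 8948 bases for Stt3a and 4221 for Stt3b. The order of the 2 genes per length depends on this choice, and which of these exons the cells use was not tested. The exact two-sided permutation test gave p = 0.1 for each of the 6 comparisons with day 0, the smallest that 3 against 3 libraries allows, and 0.1 adjusted over the 18 paralogue tests.

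The promoters of these genes are shown because most of the members moved together. The sequences run from 250 bases before to 50 bases after the start annotated by RefSeq (GRCm38.p6), 5′ to 3′ on the gene's strand. Capitals mark the 5 letters CCACG, the core bound by factors of the unfolded protein response, or CGTGG where it lies on the other strand. In Alg12 the longest capital run is an ER stress response element (ERSE), which is CCAAT and CCACG with 9 bases between. The coordinates are chr9:36767573-36767872 (minus strand) for Stt3a, chr9:115310419-115310718 (minus) for Stt3b, chr6:88084223-88084522 (plus) for Rpn1, chr4:138304488-138304787 (plus) for Ddost and chr15:88819269-88819568 (minus) for Alg12.
Stt3a: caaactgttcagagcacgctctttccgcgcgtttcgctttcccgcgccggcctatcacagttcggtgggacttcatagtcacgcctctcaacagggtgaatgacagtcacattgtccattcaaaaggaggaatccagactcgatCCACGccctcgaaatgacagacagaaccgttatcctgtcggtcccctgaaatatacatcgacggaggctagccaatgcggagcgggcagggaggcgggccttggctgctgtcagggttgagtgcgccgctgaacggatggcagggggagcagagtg
Stt3b: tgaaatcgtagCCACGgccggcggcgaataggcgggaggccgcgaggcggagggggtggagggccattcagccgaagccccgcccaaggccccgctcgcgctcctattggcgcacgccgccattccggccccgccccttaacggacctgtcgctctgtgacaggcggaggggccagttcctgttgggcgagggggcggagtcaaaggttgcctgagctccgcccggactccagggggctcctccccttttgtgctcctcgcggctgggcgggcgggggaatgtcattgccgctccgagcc
Rpn1: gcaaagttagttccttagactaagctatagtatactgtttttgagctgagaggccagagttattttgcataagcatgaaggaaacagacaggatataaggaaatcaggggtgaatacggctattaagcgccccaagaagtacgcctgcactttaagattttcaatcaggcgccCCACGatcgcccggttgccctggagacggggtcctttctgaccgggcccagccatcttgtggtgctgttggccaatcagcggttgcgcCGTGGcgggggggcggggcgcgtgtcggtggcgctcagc
Ddost: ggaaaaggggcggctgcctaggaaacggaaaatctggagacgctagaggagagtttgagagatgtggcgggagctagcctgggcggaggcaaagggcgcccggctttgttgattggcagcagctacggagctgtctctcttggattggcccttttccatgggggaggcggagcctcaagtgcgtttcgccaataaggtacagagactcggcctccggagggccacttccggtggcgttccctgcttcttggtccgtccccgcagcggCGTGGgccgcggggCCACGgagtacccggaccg
Alg12: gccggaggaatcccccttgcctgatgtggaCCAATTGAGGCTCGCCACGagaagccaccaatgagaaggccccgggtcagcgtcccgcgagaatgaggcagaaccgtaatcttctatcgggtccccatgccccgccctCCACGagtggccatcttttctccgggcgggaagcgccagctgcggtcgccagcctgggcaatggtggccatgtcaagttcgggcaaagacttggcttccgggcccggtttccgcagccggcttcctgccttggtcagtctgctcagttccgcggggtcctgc

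CCACG was found on either strand in 19 of the 41 RefSeq promoters of 32 of the genes (46.3%), and in 32.8% of all 32851 mouse promoters in the same table. Ostc, Tusc3, Alg2, Dpagt1, Man1a2 and Gmppb had no promoter entry. The overlapping letters ACGTG stood in 12 of the 41 (29.3%, against 19.6% of all), and the ERSE in 1 (2.44%, against 39 promoters or 0.119% of all). CCACGTCA was in 0 of the 41 and in 0.676% of all. Both Stt3a and Stt3b hold CCACG, as printed above. The ERSE of Alg12 lies between Alg12 and Creld2, which are transcribed away from each other from starts separated by 327 bases. Alg12 itself, which adds a mannose to the precursor in the ER lumen, was not higher than day 0 in any WT culture day compared, and at day 10 of the TLR culture it differed from day 0 by −0.26 (SE 0.24, limma adjusted p = 0.40).

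Of the subunits shared by both oligosaccharyltransferase complexes, Rpn1, Rpn2 and Ddost rose, and Dad1 did not pass. Rpn1, which holds the nascent chain near the catalytic site, read 12.74, 12.81 and 12.48 at day 4 of the TLR culture, against 10.25, 10.28 and 10.74 at day 0 (2.25, SE 0.18, limma adjusted p = 1.2e-08). It read 14.30, 14.35 and 14.17 at day 7 and 13.39, 13.17 and 13.32 at day 10, so the day 10 libraries lay between the other groups without overlap. The structural subunits Rpn2 (1.70) and Ddost (1.59) also rose by day 4 in TLR cultures, and in BCR cultures Rpn2 rose by 1.38 and Ddost by 1.22. Dad1, a small subunit, read 9.69, 10.05 and 8.43 at day 4 of the TLR culture against 9.54, 9.63 and 9.97 at day 0, and a spread of this size left its difference undetected (−0.32, SE 0.51, limma adjusted p = 0.64).

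Accessory subunits of both complexes rose, and the paralogues Magt1 and Tusc3 moved by different amounts. Ostc and Krtcap2, which belong to the STT3A complex, rose by 2.08 and 1.92 at day 4 of the TLR culture and by 1.65 and 0.70 in the BCR culture. Magt1, an oxidoreductase subunit of the STT3B complex that helps with sites near cysteines, rose by 1.75 in TLR and 1.65 in BCR cultures by day 4. Its paralogue Tusc3 differed by 0.25 in the TLR culture (limma adjusted p = 0.31) and rose by 0.52 in the BCR culture. Magt1 minus Tusc3 within a library was 4.90, 4.63 and 4.89 at day 7 of the TLR culture, against 1.91, 1.80 and 1.76 at day 0, and all 18 cultured WT TLR and BCR libraries lay above the day 0 libraries (exact two-sided permutation p = 0.1 for each group of 3).

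**Figure D2:**
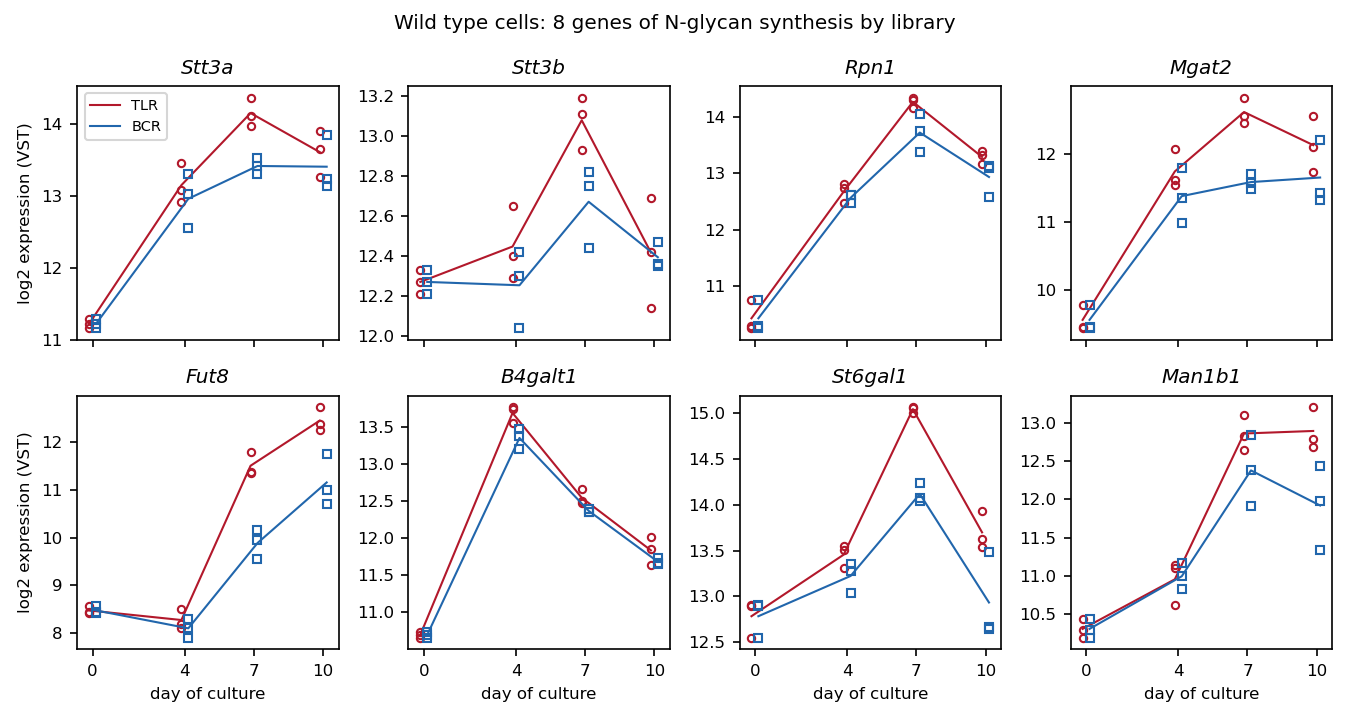
Log2 expression of 8 genes by day in WT TLR (red circles) and BCR (blue squares) cultures, 1 symbol a library and lines through the group means; the 3 day 0 libraries are drawn for both cultures. Stt3a, Rpn1 and Mgat2 are higher at day 4 than at day 0, Fut8 is high from day 7, and B4galt1 is highest at day 4.

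Most genes that assemble the precursor rose. In TLR cultures at day 10 against day 0, 7 of the 10 genes of lipid-linked oligosaccharide assembly were higher and 0 lower, with a median of 1.13. In BCR cultures the counts were 7 and 0, with a median of 1.22. Of all genes, 22.9% were higher and 23.1% lower in TLR cultures, and 29.5% and 22.8% in BCR cultures. Dpagt1, which starts the precursor by adding the first sugar phosphate to dolichol, rose by 2.32 in TLR and 1.78 in BCR cultures. Alg2, which adds mannoses on the cytosolic face, read 11.26, 11.34 and 11.56 at day 10 of the TLR culture against 8.76, 8.81 and 8.63 at day 0 (2.65, SE 0.17, limma adjusted p = 4.9e-10). Alg14, which works with Alg13 to add the next N-acetylglucosamine, rose by 1.35 in TLR and 1.44 in BCR cultures. Alg1, which adds the first mannose, differed by 0.67 in TLR (limma adjusted p = 0.19) and 0.22 in BCR cultures (0.67).

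Of the mannosyltransferases of the ER lumen, 1 of 3 passed. Alg3 rose by 1.29 in TLR and 1.10 in BCR cultures between day 0 and day 10, and Alg12 differed by −0.26 and −0.57 and Alg9 by −0.06 in TLR cultures, none past the threshold. The glucosyltransferases Alg6 and Alg8 had risen by day 4 already, by 1.42 and 1.36 in TLR and 1.17 and 1.48 in BCR cultures. Alg8 read 9.70, 9.74 and 9.79 at day 4 of the TLR culture, against 8.43, 8.38 and 8.35 at day 0. Alg5, which makes the glucose donor, rose by 1.66 in TLR and 1.33 in BCR cultures by day 10.

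Dolichol phosphate mannose synthase makes the mannose donor of the lumenal steps. None of its 3 genes rose by day 4 or by day 10 in either WT culture. Dpm1, the catalytic subunit, and Dpm3, which anchors it, fell in the BCR culture by day 4 (−0.66 and −1.29), and both calls depended on single libraries: without BCR day 4 replicate 2 Dpm1 differed by −0.44 (limma adjusted p = 0.14), and without replicate 3 Dpm3 differed by −1.01 (limma adjusted p = 0.085). Dpm1 then rose by 0.95 in TLR and 0.64 in BCR cultures between days 4 and 7. Dpm3 is a short gene whose level followed the 2 sets of libraries, with 6.53 to 9.70 in the 15 libraries under 20 M reads and 3.61 to 6.78 in the other 30.

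In the ER trimming steps, Man1b1 and Uggt1 rose most. Man1b1, a mannosidase that marks glycoproteins for trimming or disposal, read 12.65, 13.11 and 12.83 at day 7 of the TLR culture, against 11.14, 11.10 and 10.62 at day 4 (1.91, SE 0.26, limma adjusted p = 1.4e-05). Between days 4 and 7 of the BCR culture it rose by 1.39. Uggt1, the folding sensor that puts glucose back on misfolded glycoproteins, rose by 0.98 by day 4 and by another 0.78 by day 7 in the TLR culture. Ganab, the catalytic subunit of glucosidase II, rose by 1.13 in TLR and 0.70 in BCR cultures by day 10. Mogs, glucosidase I, which removes the outermost glucose, differed by 0.17 and −0.33 at day 10 against day 0 and passed in neither culture.

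The 2 Golgi mannosidases lay closer in level late in culture. At day 10 of the TLR culture Man1a was at 15.8 to 28 RPKM and Man1a2 at 11.9 to 18.5 RPKM. At day 0 Man1a was at 39.9 to 49.5 RPKM and Man1a2 at 10.7 to 11.6 RPKM. Immunoglobulin genes took 58.7 to 66.5% of reads at day 10 of this culture and 1.94 to 2.01% at day 0. These RPKM values therefore compare the 2 genes within a day, not 1 gene between days. On the log2 scale Man1a read 12.92, 12.91 and 12.61 at day 0, and it differed at day 10 by 0.33 in the TLR culture (SE 0.22, limma adjusted p = 0.24). Man1a2 read 12.16, 12.32 and 12.69 at day 10 of the TLR culture against 10.45, 10.59 and 10.49 at day 0 (1.88, SE 0.23, limma adjusted p = 2.0e-06), and rose by 1.60 in the BCR culture. Man1a2 minus Man1a within a library was −0.68, −0.72 and −0.87 at day 10 of the TLR culture, against −2.47, −2.32 and −2.12 at day 0, and the groups did not overlap (exact two-sided permutation p = 0.1).

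Branching and capping genes followed 3 different courses. B4galt1, which adds galactose, was the member with the largest rise by day 4 in both cultures and then fell. It read 13.74, 13.56 and 13.77 at day 4 of the TLR culture, against 10.66, 10.74 and 10.69 at day 0 (2.99, SE 0.11, limma adjusted p = 8.3e-13). At day 7 it read 12.66, 12.50 and 12.48 and at day 10 11.64, 11.86 and 12.01, each group below the one before without overlap. In the BCR culture it rose by 2.66 by day 4, fell by 0.98 by day 7 and fell by 0.69 between days 7 and 10.

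Fut8, the only enzyme known to add core fucose, moved late. It read 8.12, 8.20 and 8.51 at day 4 of the TLR culture, overlapping the 8.56, 8.42 and 8.45 of day 0 (−0.20, SE 0.23, limma adjusted p = 0.50). At day 7 it read 11.79, 11.35 and 11.37, the largest rise of any of the 38 genes in that step (3.23, SE 0.23, limma adjusted p = 5.3e-09). In the BCR culture it read 10.15, 9.96 and 9.55 at day 7, against 8.10, 7.91 and 8.30 at day 4 (1.78, SE 0.23, limma adjusted p = 9.8e-06). Its further rise of 0.94 to day 10 in the TLR culture was lost without replicate 2 or 3 of TLR day 7 or replicate 3 of TLR day 10 (limma adjusted p = 0.061 to 0.073).

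St6gal1, which adds the terminal sialic acid, peaked at day 7. It read 15.07, 15.06 and 15.01 at day 7 of the TLR culture, against 13.51, 13.31 and 13.55 at day 4 (1.59, SE 0.19, limma adjusted p = 3.5e-06), and fell by 1.35 between days 7 and 10. Of the N-acetylglucosaminyltransferases that open the branches, Mgat2 rose by 2.18 by day 4 of the TLR culture. Mgat1, which acts before it, differed by −0.48 by day 4 (limma adjusted p = 0.30) and rose by 1.43 between days 4 and 7. In the BCR culture Mgat2 rose by 1.82 by day 4 and Mgat1 by 1.49 between days 4 and 7.

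The sugar supply genes also rose in TLR cultures, at different steps. Gfpt1, the enzyme that commits fructose phosphate to the hexosamine pathway, and Pgm3 of the same pathway rose by 1.61 and 1.32 at day 4 in TLR and by 1.49 and 0.98 in BCR cultures. Gmppb, which makes GDP-mannose, rose later, by 1.57 between days 4 and 7 in TLR and 1.17 in BCR cultures. Mpi, which links mannose to glycolysis, rose by 0.70 by day 4 of the TLR culture and differed by 0.47 in the BCR culture (limma adjusted p = 0.081). At day 10 against day 0, 50 other genes of the pathway were tested. In TLR cultures 28 were higher and 5 lower (22.9% and 23.1% of all genes), and in BCR cultures 27 and 5 (29.5% and 22.8%). The disposal mannosidase-like gene Edem1 (3.79 in TLR and 3.13 in BCR) was among the largest rises, and the sialyltransferase St3gal6 (−1.76 and −1.65) and the galactosyltransferase B4galt3 (−1.63 and −1.80) among the largest falls.

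TLR and BCR cultures were compared day by day, and more of the 38 genes passed at day 7 than at days 4 and 10, an order that single libraries can turn. At day 4, 1 of the 38 genes was higher in TLR than in BCR cultures and 0 lower (4.3% and 3.27% of all genes), at day 7 11 and 0 (3.77% and 2.5%), and at day 10 5 and 0 (4.29% and 10.1%). Leaving out 1 library at a time gave 5 to 10 higher at day 7 and 1 to 12 at day 10. The gene at day 4 was Krtcap2, at 10.52, 10.36 and 10.18 in TLR and 9.15, 9.06 and 9.18 in BCR cultures (1.22, SE 0.24, limma adjusted p = 0.0033). At day 7 the genes were Fut8, Mgat2, St6gal1, Ostc, Alg14, Alg2, Gfpt1, Alg5, Ganab, Uggt1 and Pgm3, which reach from sugar supply to capping.

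Fut8 led this difference at day 7, at 11.79, 11.35 and 11.37 in TLR against 10.15, 9.96 and 9.55 in BCR cultures (1.62, SE 0.23, limma adjusted p = 0.00045). St6gal1 was 0.93 higher (SE 0.19) and Alg14 0.81 higher (SE 0.16), with no overlap between cultures. Under quantile normalization St6gal1 differed by 0.38 and did not pass (limma adjusted p = 0.20). The count of 11 fell to 5 without TLR day 7 replicate 1, to 7 without BCR day 7 replicate 2 and to 6 under equal medians or quantile normalization, and was 20 after the GC and length correction (8.34% of all genes higher); Mgat2 and Ostc were among the calls lost without TLR day 7 replicate 1 (limma adjusted p = 0.11 and 0.072). For plasma cell markers, the summed level of 5 genes was 35196 to 51959 CPM in TLR and 19053 to 23962 CPM in BCR cultures at day 7. The 5 mature B cell markers summed to 1863 to 2139 CPM in TLR and 3044 to 3803 CPM in BCR cultures, the macrophage markers to 30.8 to 72.4 CPM in TLR and 102 to 354 CPM in BCR cultures, and the fibroblast markers to 2.27 to 6.36 CPM in TLR and 20.4 to 25.8 CPM in BCR cultures. None of these ranges overlap, and their part in these results was not tested.

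**Figure D3:**
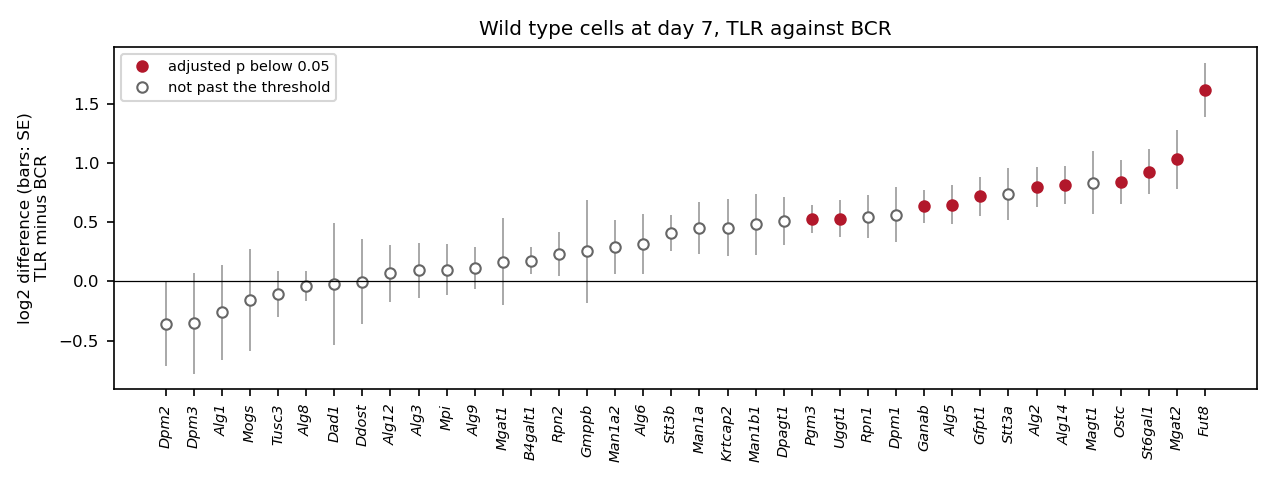
Log2 difference of each of the 38 genes, TLR minus BCR, in WT cells at day 7, sorted by size with bars of 1 SE (n = 3 libraries a culture). The 11 filled genes passed at an adjusted p below 0.05 and all lie above 0, with Fut8 highest at 1.62.

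A test of whether the step from day 4 to day 7 differed between cultures passed for Fut8 alone among the 38 genes (1.44 larger in TLR, SE 0.32, limma adjusted p = 0.027; 1.69% of all genes passed in either direction). That call was lost when any 1 of 7 libraries was left out (limma adjusted p = 0.060 to 0.092), with the difference between 1.28 and 1.48, and under equal medians (1.65, limma adjusted p = 0.086). For the step from day 7 to day 10, 0 of the 38 genes and 0.0667% of all genes passed.

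At day 10 the 5 genes higher in TLR cultures were Fut8 (1.29), Man1b1 (0.98), St6gal1 (0.77), Alg2 (0.58) and Ganab (0.43). The replicate numbers pair the libraries in this comparison, but no paired model of these 2 groups alone was fitted. With the replicate number as a block over all 21 WT libraries, Ganab no longer passed (limma adjusted p = 0.053), which left 4. This count rested on single libraries: it was 12 without BCR day 10 replicate 3, 1 without BCR day 10 replicate 1 or 2, and 2 without TLR day 10 replicate 1 or 3. Without BCR replicates 1 and 2, the libraries with the most macrophage RNA, it was 0, and Fut8 differed by 0.70 (limma adjusted p = 0.27).

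In the LPS culture of WT cells 2 of the 38 genes passed between day 4 and day 7. Fut8 rose, to 11.50, 11.77 and 12.08 at day 7 against 10.92, 11.09 and 10.98 at day 4 (0.79, SE 0.20, limma adjusted p = 0.013), and B4galt1 fell by 0.34, while 4.75% of all 20331 genes rose and 3.65% fell. The Fut8 call was lost without LPS day 4 replicate 1 or LPS day 7 replicate 3 (limma adjusted p = 0.052 and 0.10), and that of B4galt1 without any of 5 of the 6 libraries (0.083 to 0.24).

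Prdm1 was read first, for the whole gene. Its exon 1A is not separated in these values, so they cannot show the deletion itself. At day 7 Prdm1 read 11.10, 11.32 and 11.22 in dEx1A against 12.40, 12.66 and 12.77 in WT LPS cultures. It read 11.90, 11.81 and 11.72 in dEx1A against 13.43, 13.04 and 13.09 in WT TLR cultures, and 10.02, 10.10 and 10.80 in dEx1A against 12.48, 12.33 and 12.56 in WT BCR cultures. The dEx1A libraries lay below the WT libraries in each culture. At day 4 it read 9.91, 9.71 and 10.61 in dEx1A against 9.83, 9.66 and 9.86 in WT TLR cultures, which overlap, while LPS and BCR dEx1A libraries of day 4 lay below their WT libraries.

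At day 7 of the LPS culture the genotypes were labelled with the same sex and age and lay in the same library set, and 2 of the 38 genes were higher and 3 lower in dEx1A than in WT (3.3% and 3.78% of all genes). B4galt1 read 12.84, 13.07 and 12.97 in dEx1A against 11.67, 11.47 and 11.35 in WT libraries (1.46, SE 0.11, limma adjusted p = 1.7e-11). Man1b1 read 12.74, 13.05 and 13.01 in dEx1A against 11.81, 11.88 and 12.02 in WT libraries (1.03, SE 0.20, limma adjusted p = 0.00052). In both, every dEx1A library was above every WT library.

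The 3 genes lower in dEx1A at day 7 of the LPS culture were Man1a2, Fut8 and Dpagt1. Man1a2 read 10.87, 10.93 and 10.75 in dEx1A against 11.59, 11.73 and 11.80 in WT libraries (−0.86, SE 0.16, limma adjusted p = 0.00046). Fut8 read 10.86, 11.31 and 10.72 in dEx1A against 11.50, 11.77 and 12.08 in WT libraries (−0.82, SE 0.20, limma adjusted p = 0.0087), and Dpagt1 was at −0.50 (limma adjusted p = 0.048). The groups did not overlap for these 3 genes. The Fut8 call was lost without WT replicate 3 or dEx1A replicate 3 (limma adjusted p = 0.088 and 0.068) and the Dpagt1 call without any of the 6 libraries, so that 1 of the 3 was left without either replicate 3. After the GC and length correction 4 genes were higher and 7 lower (5.25% and 6.25% of all genes), the 5 above among them. Before the correction the 10 oligosaccharyltransferase genes ran from −0.42 to 0.10 in this comparison, and none passed. After it Tusc3 was lower in dEx1A (−0.48, limma adjusted p = 0.0053).

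At day 7 B4galt1 was higher and Fut8 and Man1a2 were lower in dEx1A in all 3 cultures, the only genes of the 38 to pass in the same direction in each. In TLR cultures B4galt1 differed by 1.15, Fut8 by −1.84 and Man1a2 by −1.57, and in BCR cultures by 0.85, −1.52 and −1.98. After the GC and length correction 6 genes passed in the same direction in each culture, these 3 and Alg2, Dpagt1 and Mgat1, all of the added ones lower. The share of all genes that pass in the same direction in all 3 cultures was not counted, before or after the correction. Whether these counts exceed that share is therefore not known. Corrected values were −0.40, −0.98 and −1.32 for Alg2, −0.49, −0.65 and −0.57 for Dpagt1 and −0.36, −0.46 and −0.48 for Mgat1 in LPS, TLR and BCR cultures. The first 3 kept their directions, with B4galt1 at 0.98 in TLR and 0.71 in BCR, Fut8 at −1.19 and −0.98, and Man1a2 at −0.92 and −1.44. The 3 comparisons share no library, but TLR and BCR genotypes also differ in library set and in the sex and age given for each sample, and these cannot be told apart from the genotype there. Man1b1 was not of this kind: in TLR cultures it differed by 0.69 before and by −0.01 after the correction (limma adjusted p = 0.96), and in BCR cultures by −0.39 and −0.82. Plasma cell markers summed to 11313 to 13697 CPM in dEx1A against 13718 to 17780 CPM in WT LPS cultures, 13889 to 15216 CPM in dEx1A against 35196 to 51959 CPM in WT TLR cultures, and 2464 to 4488 CPM in dEx1A against 19053 to 23962 CPM in WT BCR cultures. Mature B cell markers summed to 2464 to 2992 CPM in dEx1A against 4583 to 4676 CPM in WT LPS cultures, 1357 to 1556 CPM in dEx1A against 1863 to 2139 CPM in WT TLR cultures, and 2134 to 3041 CPM in dEx1A against 3044 to 3803 CPM in WT BCR cultures, with no overlap in any culture. The fibroblast markers summed to 23.4 to 26.1 CPM in dEx1A against 2.27 to 6.36 CPM in WT TLR cultures and 282 to 428 CPM in dEx1A against 20.4 to 25.8 CPM in WT BCR cultures. In BCR cultures the macrophage markers summed to 435, 73.4 and 1715 CPM in dEx1A replicates 1, 2 and 3, against 102 to 354 CPM in WT. Their ranges in dEx1A and WT overlapped in all 3 cultures. The part of these differences in the results was not tested.

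**Figure D4:**
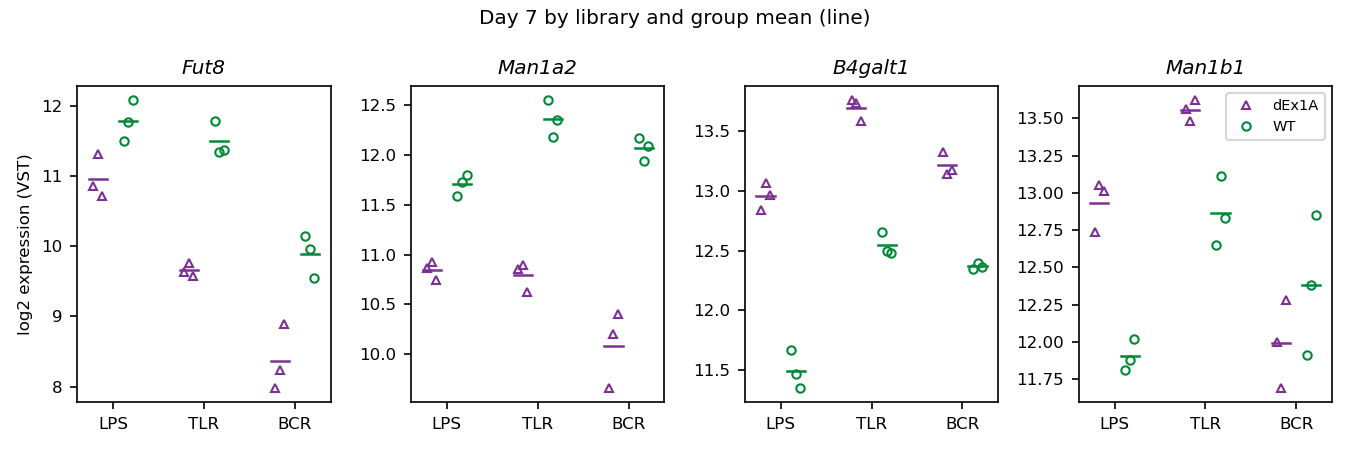
Log2 expression of Fut8, Man1a2, B4galt1 and Man1b1 at day 7 in dEx1A (purple triangles, left of each pair) and WT (green circles) libraries of the LPS, TLR and BCR cultures, with a line at each mean (n = 3). Fut8 and Man1a2 are lower and B4galt1 higher in dEx1A in every culture without overlap, and Man1b1 is higher in dEx1A in the LPS and TLR cultures.

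Over the whole list, 11 of the 38 genes were higher and 16 lower in dEx1A than in WT at day 7 of the TLR culture (26.2% and 28.7% of all genes), and 4 higher and 17 lower in the BCR culture (25.8% and 25%). These counts moved with GC content, as the plot against GC shows. In the TLR culture 14 of the 19 genes with at least 50% GC were above 0 and 2 of the 19 with less, and the difference correlated with GC across the 38 genes at r = 0.69, against 0.04 after the correction. In the LPS comparison, within 1 library set, r was 0.16. Between the genotypes at day 7, 4 genes were higher and 16 lower in TLR cultures after the correction. The shares of all genes were 17.6% and 37.2%, so that the lower count is near the share of all genes. In BCR cultures at day 7 the counts after the correction were 3 and 25 (24.4% and 31.6%). Of the members called before the correction, 3 and 9 kept their call in TLR and 3 and 13 in BCR cultures. The share of all called genes that kept theirs was not counted. Mogs and Alg1, at 1.37 and 1.22 in TLR cultures, stood at −0.59 and −0.22 after it, and Mgat1, at 0.92, stood at −0.46 (limma adjusted p = 0.00080).

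**Figure D5:**
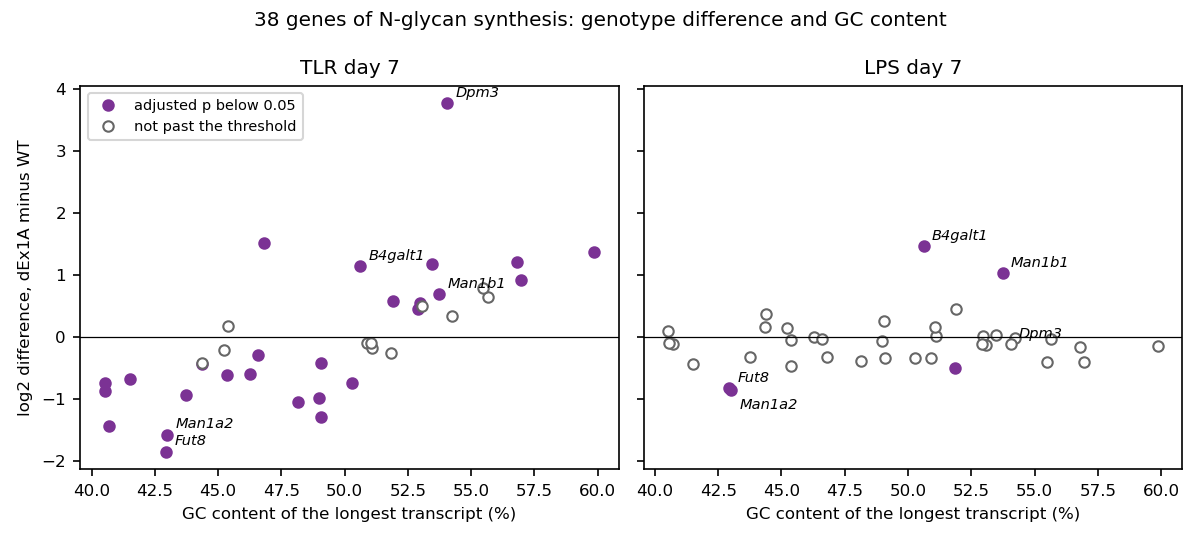
Log2 difference of the 38 genes, dEx1A minus WT, against the GC content of the longest transcript, at day 7 of the TLR culture (left, the genotypes in different library sets) and of the LPS culture (right, in the same set), with filled symbols for an adjusted p below 0.05. In TLR cultures 14 of the 19 genes with at least 50% GC lie above 0 and 2 of the 19 with less, and in LPS cultures B4galt1 and Man1b1 lie above the other genes.

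Dpm3 had the largest difference in TLR cultures, at 8.66, 8.22 and 9.70 in dEx1A against 4.81, 5.56 and 4.91 in WT libraries (3.77, SE 0.44, limma adjusted p = 5.5e-08). It differed by 2.01 in BCR cultures and by −0.11 in LPS cultures (limma adjusted p = 1.0), and by 2.59, 1.17 and −0.09 after the correction. WT LPS libraries, also in the set below 20 M reads, read 7.99 to 8.92.

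At day 4 few genes passed between the genotypes in TLR and BCR cultures, where 0 of the 38 genes were higher and 1 and 0 lower in dEx1A (4.08% higher and 3.14% lower of all genes in TLR, 1.19% and 0.669% in BCR). The 1 gene was Alg12 in the TLR culture (−0.61, SE 0.18, limma adjusted p = 0.038), whose call was lost without WT replicate 1 or 2 or dEx1A replicate 1 or 3 (limma adjusted p = 0.16 to 0.20). In the same comparison 6 genes were higher without dEx1A TLR day 4 replicate 2 and 4 without WT TLR day 4 replicate 3. In BCR cultures 2 of the 38 genes had limma's unadjusted p below 0.05 and voom on the recovered reads called 0. The share of all genes below that unadjusted p was not counted, so these 2 are not read as a result.

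At day 4 of the LPS culture 17 genes were lower in dEx1A and 1 higher (11.8% and 12.6% of all genes). Leaving out 1 library at a time gave 12 to 15 lower. The largest difference was that of Dpm3 (−2.91), whose level followed the library sets. The 17 lower genes held 6 of the 10 oligosaccharyltransferase genes. Rpn1 read 12.55, 12.51 and 12.93 in dEx1A against 13.86, 13.77 and 13.87 in WT libraries (−1.17, SE 0.17, limma adjusted p = 5.3e-06), and St6gal1 read 12.51, 11.86 and 12.60 in dEx1A against 13.66, 13.62 and 13.55 in WT libraries (−1.29, SE 0.15, limma adjusted p = 1.2e-07). B4galt1 was the gene that was higher, by 0.75. These 2 groups lie in different library sets. The differences of the 38 genes correlated with GC content at r = −0.46, against −0.02 after the GC and length correction. The immunoglobulin share was 2.44 to 4.63% in dEx1A against 14.1 to 15.5% in WT cultures. The part of the library set or of the immunoglobulin share in the differences was not tested.

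Between days 4 and 7 the pathway rose in dEx1A LPS cultures, where 20 of the 38 genes were higher and 2 lower at day 7 (16.3% and 17.8% of all genes). The 20 became 13 without dEx1A LPS day 7 replicate 2 and 12 under equal medians. St6gal1 rose by 1.41 and Man1b1 by 1.83 in that step. In dEx1A TLR cultures 20 were higher and 9 lower (29.3% and 32.8%), and in dEx1A BCR cultures 15 and 10 (26.2% and 27.7%), with 6 lower without dEx1A BCR day 7 replicate 1. Fut8 rose by 1.28 between days 4 and 7 in dEx1A TLR cultures and differed by −0.21 in dEx1A BCR cultures (limma adjusted p = 0.40). The days of each dEx1A culture lie in different library sets, which cannot be told apart from time. Tested directly, the genotype effect differed between days 7 and 4 for 8 of the 38 genes in LPS cultures (5.48% of all genes passed). It differed for 27 in TLR cultures (49.4%) and 12 in BCR cultures (33.9%), and the BCR count is near the share of all genes.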

How the data were processed

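Values were the authors' deposited log2 expression, a variance-stabilising transform of estimated gene counts in 2 tables of 28196 genes (21 WT libraries, and 39 libraries of both genotypes, 15 of them shared with identical values). The submitters' processing notes list the aligner STAR 2.6.0c with RSEM 1.3.0, the package DESeq2 1.22.2 under R 3.5.1, and for read checks and trimming FastQC 0.11.8 and Trim Galore 0.6.0. Cnksr3 was left out for a value below the floor. Reads per library were recovered from the deposited log2 values, and below 20 reads 94.3 to 100% per library were whole within 0.1 (20% by chance). No depth was stated.

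Group means were fitted over all libraries of a table with limma 3.58.1 in R 4.3.3 (trended variance, Benjamini-Hochberg threshold 0.05), for genes at least 1 log2 unit above the floor in 3 libraries. WT day 0, TLR and BCR comparisons used the first table (19497 genes, 14 residual degrees of freedom) and the others the second (20331 genes, 26). The model was tested on simulated data. Annotation was GENCODE M21 on GRCm38, in which 28187 genes matched, and GC content is of the longest transcript.

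All 38 members could be named; full statistics go mainly to the 5 largest changes in each direction per comparison and to 3 pairs of paralogues. Members and lists were chosen with earlier results of these data known. The replicate numbers came from the titles. In 4 of 21 compared pairs of groups all 3 same-numbered correlations exceeded 0.1 (TLR against BCR at days 4 and 10, dEx1A LPS day 7 against day 4, and dEx1A against WT BCR at day 4), and over all pairs they ran from −0.73 to 0.95. Alternatives were equal medians, quantile normalization, no filter, voom on recovered reads, the replicate block, a correction for GC content and length with and without that block, only the groups compared, and leaving out libraries.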

Additional observations from a re-analysis of the deposited data

Results flagged for a closer look

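Some effects differed between cultures or between days by a test of the difference itself (limma interaction terms). The step from day 4 to day 7 differed between TLR and BCR cultures for 1 of the 38 genes, Fut8 (1.44), while 1.69% of all genes passed. That call was lost when any 1 of 7 libraries was left out (limma adjusted p = 0.060 to 0.092) and under equal medians (0.086).

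The genotype effect differed between days 7 and 4 for 8 genes in LPS cultures (5.48% of all genes passed), among them Dpm3 (2.81), Man1b1 (1.56), Krtcap2 (1.33), Rpn2 (0.98) and St6gal1 (0.96), each relatively higher in dEx1A at day 7. The count was 5 without WT LPS day 7 replicate 1 or without dEx1A LPS day 7 replicate 2, and Krtcap2 and Rpn2 were lost in both cases.

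In TLR cultures it differed for 27 genes (49.4% of all genes), with Dpm3 (4.51), Dad1 (1.93), Dpm2 (1.75), Mogs (1.60) and Alg1 (1.43) relatively higher and Man1a2 (−2.03), Fut8 (−1.95), Magt1 (−1.90), Mgat2 (−1.72) and Man1a (−1.21) relatively lower in dEx1A at day 7. In BCR cultures it differed for 12 genes (33.9% of all genes), a count near the share of all genes. Dpm3 (2.29), B4galt1 (1.03) and Mpi (0.82) were relatively higher there. Man1a2 (−2.04), Fut8 (−1.99), Magt1 (−1.28), Alg2 (−1.11) and Stt3b (−0.96) were relatively lower. In all 3 cultures the groups compared lie in both library sets, and the set cannot be told apart from this difference.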

How the results depend on the processing

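Of 146 results for single genes, 97 kept their call under all alternatives, 49 lost it under at least 1 and 30 in a fit of the compared groups alone. The median of all genes moved to between −0.39 and 0.17 under equal medians, to −0.17 under quantile normalization, −0.12 under voom and −0.26 under the GC and length correction. With 3 libraries a group and 15.1 to 35.6 M reads, a difference within the spread of the libraries was not detectable. The causes of the changes below were not tested.

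The GC and length correction reversed Mogs (−0.59) and Alg1 (−0.22) in dEx1A against WT at TLR day 7, Magt1 (0.23) between days 7 and 4 of dEx1A TLR, Alg6 (0.087) between those days of dEx1A BCR, and the genotype by day difference of Mogs (−0.92) and Alg1 (−0.42) in TLR, alike with the replicate block added.

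Counts of the 38 genes follow, with the main count second. Equal medians gave 2 lower (0) at TLR day 4 against day 0, 0 higher (1) at TLR day 10 against 7, 8 higher (15) at BCR day 7 against 4, 1 higher (4) at BCR day 10 against 7, 3 lower (0) at BCR day 10 against 0, 6 higher (11) in TLR against BCR at day 7, 0 (1) for the culture by step test of days 4 to 7, and 0 higher (1) and 0 lower (1) at LPS day 7 against 4. In dEx1A against WT they gave 2 higher (1) at LPS day 4 and 3 higher (0) and 0 lower (1) at TLR day 4, and in dEx1A LPS day 7 against 4, 12 higher (20) and 4 lower (2). Quantile normalization gave 2 lower (0) at TLR day 4 against 0, 5 lower (3) at BCR day 10 against 7, 1 lower (0) at BCR day 10 against 0, 2 (1), 6 (11) and 2 (5) higher in TLR against BCR at days 4, 7 and 10, and in dEx1A against WT 2 higher (1) at LPS day 4 and 2 lower (1) at TLR day 4.

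The GC and length correction gave 5 lower (0) at TLR day 4 against 0, 3 higher (1) and 11 lower (6) at TLR day 10 against 7, 2 lower (0) at TLR day 10 against 0, 6 lower (3) at BCR day 4 against 0, 23 higher (15) at BCR day 7 against 4, 6 lower (3) at BCR day 10 against 7 and 2 lower (0) at BCR day 10 against 0. In TLR against BCR it gave 3 higher (1) and 2 lower (0) at day 4, 20 higher (11) at day 7, and 9 higher (5) and 1 lower (0) at day 10, with 3 (1) for the culture by step test of days 4 to 7 and 4 higher (1) at LPS day 7 against 4. In dEx1A against WT it gave 2 higher (1) at LPS day 4, 4 higher (2) and 7 lower (3) at LPS day 7, 4 higher (0) at TLR day 4, 4 higher (11) at TLR day 7 and 2 lower (0) at BCR day 4, with 6 lower (10) at dEx1A BCR day 7 against 4, and 14 (8) and 19 (12) for genotype by day in LPS and BCR. With the replicate block added, the counts were the same but for 12 lower at TLR day 10 against 7, 3 lower at TLR day 10 against 0, 4, 22 and 11 higher and at day 10 2 lower in TLR against BCR, and 15 for genotype by day in LPS.

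The replicate block alone gave 2 higher (1) at LPS day 7 against 4 and in dEx1A against WT at LPS day 4, where the numbers do not pair the libraries; beside Ganab in TLR against BCR at day 10 it changed no other call of a named gene. With only the groups compared, the counts were 2 lower (0) at TLR day 4 against 0, 1 lower (2) at TLR day 7 against 4, 0 higher (1) and 2 lower (6) at TLR day 10 against 7, 0 higher (4) and 0 lower (3) at BCR day 10 against 7, 0 higher (5) in TLR against BCR at day 10, 2 higher (1) and 0 lower (1) at LPS day 7 against 4, 2 higher (1), 0 lower (1) and 10 lower (17) in dEx1A against WT at LPS day 4, TLR day 4 and BCR day 7, 0 lower (2) and 5 lower (10) at day 7 against 4 in dEx1A LPS and BCR, and 6 (12) for genotype by day in BCR. No filter gave 1 lower (2) at TLR day 7 against 4 and 0 lower (1) at LPS day 7 against 4, and voom gave 2 higher (4) at BCR day 10 against 7 and 3 higher (1) in TLR against BCR at day 4. Without replicates 1 and 2 of BCR day 10 the counts were 2 higher (4) and 1 lower (3) at BCR day 10 against 7 and 0 higher (5) in TLR against BCR at day 10.

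Leaving out 1 library at a time gave these ranges, higher then lower: TLR day 4 against 0, 21 to 24 and 0 to 1; TLR day 7 against 4, 22 to 23 and 1 to 2; TLR day 10 against 7, 0 to 1 and 4 to 7; TLR day 10 against 0, 26 to 27 and 0 to 0. BCR day 4 against 0, 19 to 24 and 1 to 3, BCR day 7 against 4, 12 to 16 and 2 to 3, BCR day 10 against 7, 2 to 4 and 3 to 5, and BCR day 10 against 0, 23 to 24 and 0 to 1. For TLR against BCR they were 1 to 1 and 0 to 0 at day 4, 5 to 10 and 0 to 0 at day 7, and 1 to 12 and 0 to 2 at day 10, and for the culture by step tests 0 to 1 in both. LPS day 7 against 4 gave 0 to 2 and 0 to 1. For dEx1A against WT they were 1 to 1 and 12 to 15 at LPS day 4, 2 to 2 and 1 to 3 at LPS day 7, 0 to 6 and 0 to 2 at TLR day 4, 8 to 13 and 13 to 16 at TLR day 7, 0 to 0 in both directions at BCR day 4, and 3 to 6 and 15 to 21 at BCR day 7. For dEx1A day 7 against 4 they were 13 to 20 and 0 to 2 in LPS, 20 to 21 and 9 to 9 in TLR, and 13 to 16 and 6 to 11 in BCR, and for genotype by day 5 to 9 in LPS, 21 to 32 in TLR and 8 to 17 in BCR.

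Of all genes called, the share that was higher moved by over 10 points in some comparisons, the main share second. Under equal medians it was 31% (42.8%) for TLR day 10 against day 7, 37% (50.1%) for BCR day 7 against day 4, 41.4% (64.6%) for BCR day 10 against day 7, 36.7% (56.4%) for BCR day 10 against day 0, 46.7% (56.8%) for TLR against BCR day 4, 51.4% (29.9%) for TLR against BCR day 10, 62.2% (51.1%) for culture by step of days 4 to 7, 66.9% (51.5%) for dEx1A against WT LPS day 4, 83.2% (56.5%) for dEx1A against WT TLR day 4, 33.5% (47.7%) for dEx1A LPS day 7 against day 4, 34.3% (47.2%) for dEx1A TLR day 7 against day 4, 32% (48.6%) for dEx1A BCR day 7 against day 4, 34.4% (49.3%) for genotype by day in TLR. Under quantile normalization it was 31.2% (42.8%) for TLR day 10 against day 7, 47.5% (64.6%) for BCR day 10 against day 7, 42.9% (56.4%) for BCR day 10 against day 0, 43.1% (29.9%) for TLR against BCR day 10. Under the GC and length correction it was 29.7% (42.8%) for TLR day 10 against day 7, 62.4% (51.1%) for culture by step of days 4 to 7, 15.8% (0%) for culture by step of days 7 to 10, 43.7% (56.5%) for LPS day 7 against day 4, 64.3% (51.5%) for dEx1A against WT LPS day 4, 32.2% (47.7%) for dEx1A against WT TLR day 7, 34.9% (47.7%) for dEx1A LPS day 7 against day 4, 34.4% (47.2%) for dEx1A TLR day 7 against day 4, 33.4% (48.6%) for dEx1A BCR day 7 against day 4, 36.9% (60.2%) for genotype by day in LPS, 31.6% (49.3%) for genotype by day in TLR.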
